A study of Mus musculus with 4 samples.

Results

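The genes that license, unwind and copy DNA in S phase, together with the E2F and cyclin E genes that open it, were followed in mouse E14 embryonic stem cells after a short exposure to valproic acid (VPA). The set holds 44 genes given by name, and each was read from the probe set whose platform annotation carries that single symbol. All 44 had such a probe set, among 19938 genes represented in this way. Only Pcna had more than 1, and the brighter was used. The members were sorted by role into licensing (9 genes), helicase (13), polymerases with clamp, clamp loader and RPA (14), nucleotide supply and chromatin assembly (4), and E2F, cyclin E and Cdk2 (4).

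E14 cells of the untreated group (2 arrays) and cells given 0.5 mM VPA for 4 h (2 arrays) carried no genetic change named in the labels, and the controls are called untreated, with no vehicle named. Both groups grew in medium with serum and leukemia inhibitory factor on primary embryonic fibroblasts arrested with mitomycin C, and no source used here says whether these feeders were removed before RNA was taken. Total RNA was read on one-colour Affymetrix arrays, and each value is a log2 signal, so a difference of 1 is a doubling. The 2 arrays of a group are named replicates without a statement that they came from separate cultures, so every p-value rests on array-to-array spread that may be technical alone.

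Replication starts at origins that are licensed beforehand. The origin recognition complex (ORC), Cdc6 and Cdt1 load the Mcm2 to Mcm7 ring onto DNA, and geminin (Gmnn) blocks Cdt1 so that an origin is loaded only once per cycle. Kinases, among them Cdc7 and Cdk2 with cyclin E, then let Cdc45 and the GINS complex join the ring and turn it into the active helicase. Many of these genes are activated by E2F factors as cells enter S phase. Embryonic stem cells have a short G1 phase and spend much of their cycle in S phase, and inhibitors of histone deacetylases such as VPA are known for slowing the cycle of many cell types.

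After 4 h of VPA all 44 members had a mean within 1.5-fold of the untreated mean, and no member passed the test. In limma with Benjamini-Hochberg adjustment over 35556 probe sets, 0 members were called, as were 0% of all probe sets, and the smallest adjusted p of a member was 0.472. On simulated data this fit called none of the planted 1.5-fold changes, the smallest planted. The lack of a call thus says little about differences as small as those of the members. The members with an unadjusted p under 0.05 were 4, Chaf1b, Gins3, Cdk2 and Rrm2, all with the higher mean in VPA cells. That is 9.09% of the members, where 5.9% of all represented genes were higher at this threshold. Among the 8121 represented genes with a mean signal no lower than that of the dimmest member the share was 10.7%, so the count lay near this background. It moved with the array left out, as did the share of the brighter genes, but a group is then left with a single array. These brighter genes were still dimmer than the members on average, with mean log2 signals of 7.20 and 8.26 on untreated replicate 1. They are thus not a background matched for signal. In the downward direction there were 0 members, beside 2.71% of all represented genes and 3.18% of the brighter ones. For 29 of 44 members the 95% interval of the difference lay inside a 1.5-fold change either way (65.9%, beside 74.5% of all represented genes and 64.9% of the brighter ones).

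**Figure D1:**
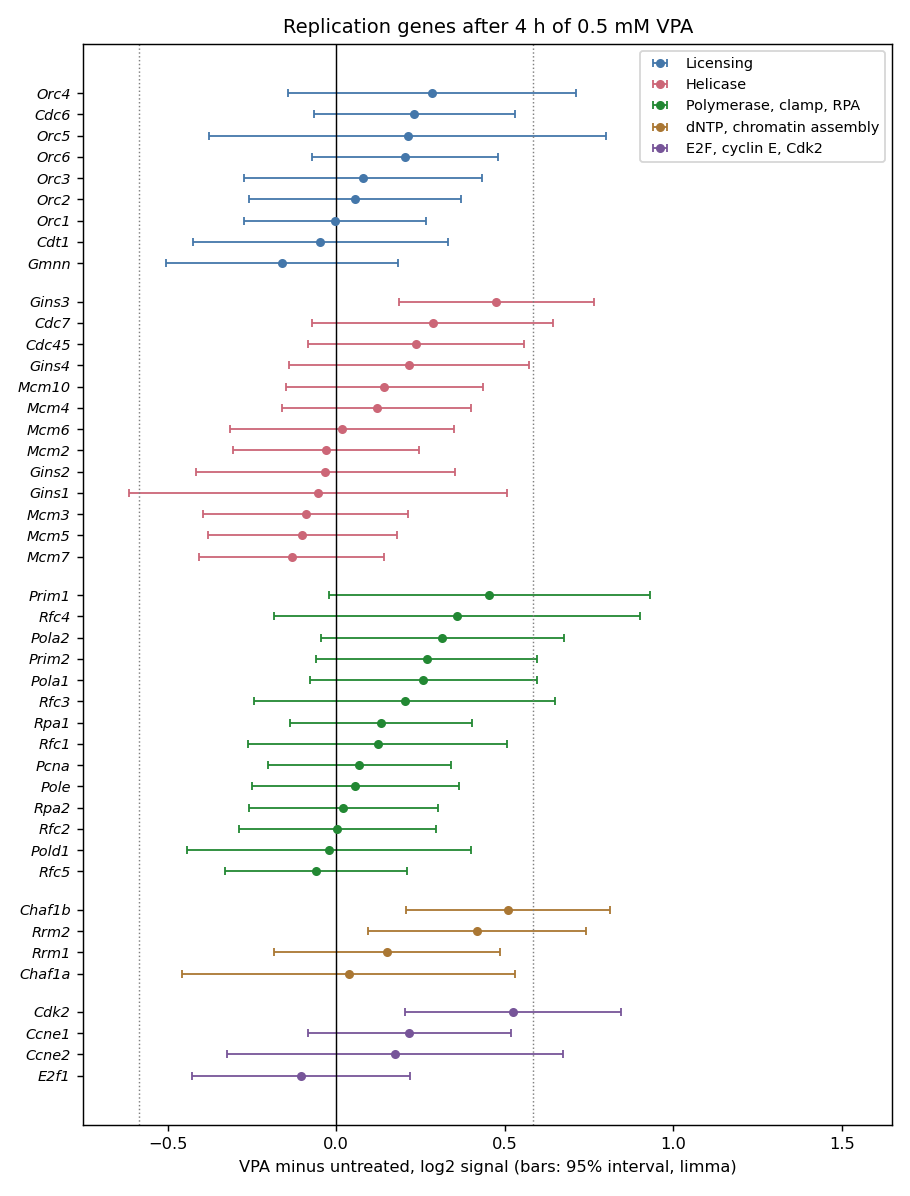
Difference in log2 signal (VPA minus untreated) for each of the 44 members, grouped by role, with 95% intervals from limma; dotted lines mark 1.5-fold. Intervals of 4 members (Gins3, Chaf1b, Rrm2 and Cdk2) leave out 0, and 29 of 44 lie between the dotted lines.

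The direction was mostly upward but small. Group means were higher with VPA for 32 members (72.7%, beside 53.7% of all represented genes and 64.8% of the brighter ones) and lower for 12, and the median difference was 0.13. Over all represented genes the median was 0.02, and over the brighter 8121 genes it was 0.08. The 2 groups of arrays did not overlap for 21 members that were higher with VPA (47.7%, beside 24.1% of all represented genes and 35.7% of the brighter ones). They did not overlap for 4 members that were lower, Gmnn, Mcm5, Mcm7 and Rfc5 (9.09%, beside 18.1% and 15%). No member had means 1.5-fold apart without overlap in either direction, a size reached upward by 0.973% and downward by 0.266% of all represented genes, and by 1.77% and 0.394% of the brighter ones. With 2 arrays a group, the smallest p of an exact permutation test is 0.333, so single genes are described by their values and by limma.

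The results moved with the choice of untreated array. Untreated replicate 2 lay below untreated replicate 1 for 35 of 44 members (79.5%), beside 49% of all represented genes and 57.9% of the brighter ones. The gap reached 0.2 or more downward for 17 members (38.6%, beside 18.2% of all represented genes and 27% of the brighter ones) and upward for 5 (11.4%, beside 17.1% and 14.6%). It was at least 0.4 downward for Orc4, Orc5, Gins1, Prim1, Rfc3 and Rfc4. That is 13.6% of the members, beside 4.89% of all represented genes and 8.32% of the brighter ones. Without untreated replicate 2 the median difference of the members was 0.05, with 26 higher and 18 lower, and the same 0.05 was the median of the brighter genes. The differences of Chaf1b, Gins3, Cdk2 and Rrm2 were then 0.48, 0.52, 0.44 and 0.31. Without untreated replicate 1 the median of the members was 0.17, beside 0.10 for the brighter genes. In that setting 35 members were higher and 9 lower, beside 5270 and 2851 of the brighter genes. The medians of members and brighter genes were 0.14 and 0.09 without VPA replicate 1, and 0.13 and 0.07 without VPA replicate 2. With 2 untreated arrays, the values do not say which of them is the odd one. With each array left out in turn, 18 of 44 members changed sign at least once. The same count was not made over all represented genes, so it cannot be called particular to the members. What made the untreated arrays differ was not tested.

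**Figure D2:**
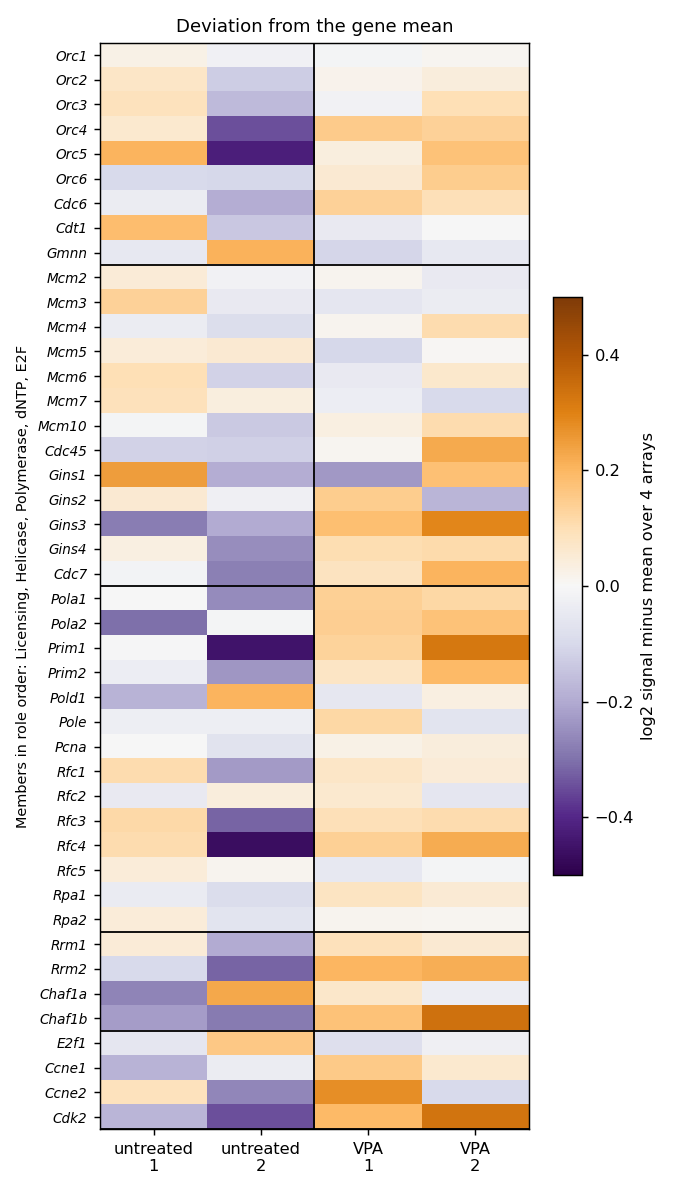
Log2 signal of each member on each array minus its mean over the 4 arrays (orange above, purple below), with members in role order from licensing (top) to E2F, cyclin E and Cdk2 (bottom). Untreated replicate 2 has the lower of the untreated values for 35 of 44 members, most clearly for Orc5 and Rfc4.

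Among the licensing genes, ORC subunits and loaders had small differences in both directions, with a median of 0.08. Group means were higher with VPA for 6 of 9 (66.7%, beside 53.7% of all represented genes and 64.8% of the brighter ones) and lower for 3. At an unadjusted p under 0.05 in limma there were 0, beside 5.9% and 10.7% upward. Cdc6, an ATPase that helps ORC load the Mcm ring, lay at 8.18 and 8.02 on the untreated arrays and at 8.35 and 8.32 on the VPA arrays. The groups did not overlap, and the difference was 0.23 ± 0.12 (SE; adjusted p = 0.602 in limma). Orc6, a subunit of ORC, read 8.21 and 8.20 untreated and 8.36 and 8.45 with VPA. Its untreated values were almost the same, and the difference was 0.20 ± 0.11 (adjusted p = 0.622 in limma). Orc4, another ORC subunit, gave 7.42 and 7.01 untreated and 7.51 and 7.49 with VPA. Its difference of 0.29 ± 0.17 (adjusted p = 0.651 in limma) came with a wide untreated pair and was 0.08 without untreated replicate 2.

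The remaining licensing genes overlapped between groups, apart from Gmnn. Orc1, the ORC subunit whose level is known to follow the cell cycle, read 7.07 and 7.03 untreated and 7.04 and 7.06 with VPA, with a 95% interval of the difference from −0.27 to 0.27. Orc5 read 8.41 and 7.78 untreated against 8.24 and 8.38 with VPA. Its difference of 0.21 became −0.10 without untreated replicate 2 and 0.52 without untreated replicate 1. Orc2 and Orc3 differed by 0.06 and 0.08. Cdt1, the loading factor, differed by −0.05 ± 0.15, and its inhibitor Gmnn by −0.16 ± 0.13. Gmnn read 5.36 and 5.62 untreated and 5.30 and 5.36 with VPA, so the groups were separate by less than the last digit shown (5.360 against 5.359). The median of the licensing genes was −0.03 without untreated replicate 2, 0.21 without untreated replicate 1, 0.14 without VPA replicate 1 and 0.04 without VPA replicate 2.

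The 6 subunits of the Mcm ring differed little. Their differences lay between −0.13 for Mcm7 and 0.12 for Mcm4, and their 95% intervals all stayed inside a 1.5-fold change, the widest bounds being −0.41 and 0.40. Mcm7 lay at 10.63 and 10.57 untreated and at 10.50 and 10.43 with VPA, a separate but small difference of −0.13 ± 0.11 (adjusted p = 0.751 in limma). Mcm5 lay at 9.70 and 9.71 untreated and at 9.55 and 9.66 with VPA, a difference of −0.10 ± 0.11 (adjusted p = 0.817 in limma). Mcm2 and Mcm3 differed by −0.03 and −0.09 and Mcm6 by 0.02, all with overlapping groups. Mcm4 read 9.11 and 9.06 untreated and 9.16 and 9.25 with VPA, the one ring subunit whose VPA arrays were both above the untreated ones. With each array left out in turn, Mcm2 lay between −0.06 and 0.0044 and Mcm6 between −0.09 and 0.13.

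Of the 7 factors that turn the ring into a working helicase, 5 had the higher mean with VPA, and Gins3 had the largest difference. A higher mean was found for 53.7% of all represented genes and 64.8% of the brighter ones. Gins3 encodes a subunit of GINS, the 4-protein complex that binds the ring with Cdc45. It read 6.33 and 6.42 untreated and 6.80 and 6.91 with VPA, so both VPA arrays were clearly above both untreated ones. Group means were 6.38 ± 0.059 and 6.85 ± 0.077 (SD, n = 2 each). The difference was 0.47 ± 0.11 (SE), or 1.39-fold, with an adjusted p of 0.472 in limma, and it stayed between 0.42 and 0.53 with each array left out in turn.

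The other GINS genes had smaller differences. Gins4 read 8.38 and 8.09 untreated and 8.45 and 8.46 with VPA, a difference of 0.22 ± 0.14 (adjusted p = 0.683 in limma) that was 0.07 without untreated replicate 2. Gins1 read 7.87 and 7.43 untreated against 7.39 and 7.80 with VPA. Its gap within each group was far wider than the difference of −0.05 ± 0.22 between the group means. Gins2 differed by −0.03 ± 0.15. Whether the GINS genes differ from each other in their response was not tested.

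Cdc7, the kinase that phosphorylates the loaded ring, read 5.68 and 5.42 untreated and 5.77 and 5.90 with VPA. The groups were separate and the difference was 0.29 ± 0.14 (adjusted p = 0.596 in limma), and 0.16 without untreated replicate 2. Cdc45 read 7.35 on both untreated arrays and 7.47 and 7.69 with VPA, a difference of 0.24 ± 0.12 (adjusted p = 0.62 in limma). Mcm10, which stabilises the helicase and recruits polymerase alpha, read 8.58 and 8.45 untreated and 8.62 and 8.69 with VPA, a difference of 0.14 ± 0.11 (adjusted p = 0.75 in limma). Over all 13 helicase genes 7 means were higher (53.8%, beside 53.7% of all represented genes and 64.8% of the brighter ones) and 6 lower. At an unadjusted p under 0.05 in limma there was 1, upward (7.69%, beside 5.9% and 10.7%). The median of the 13 was 0.02, and −0.06 without untreated replicate 2. It was 0.14, 0.15 and 0.07 without untreated replicate 1, VPA replicate 1 and VPA replicate 2.

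**Figure D3:**
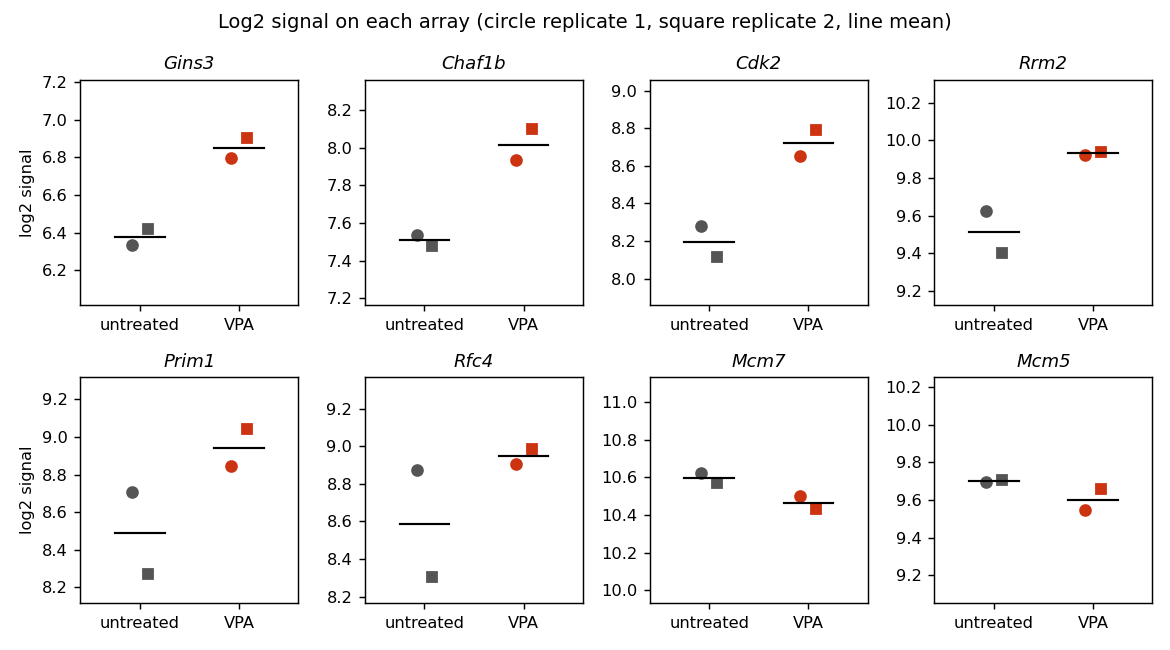
Log2 signal of 8 members on each array, untreated in grey and VPA in red, with circles for replicate 1, squares for replicate 2 and lines for the group means; every panel spans 1.2 on the log2 scale. Gins3, Chaf1b, Cdk2 and Rrm2 have both VPA arrays above both untreated arrays by more than the gap within either group. Prim1 and Rfc4 have a wide untreated pair, with replicate 2 the lower. Mcm7 and Mcm5 lie slightly lower with VPA.

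Of the 14 genes of polymerases, clamp, loader and RPA, 12 had the higher mean with VPA (85.7%). That share was 53.7% for all represented genes and 64.8% for the brighter ones. At an unadjusted p under 0.05 in limma there were 0 of the 14, beside 5.9% and 10.7% upward. The largest differences, apart from that of Rfc4, were in the polymerase alpha-primase complex, which lays down the RNA-DNA primers. Prim1, the catalytic primase subunit, read 8.71 and 8.27 untreated and 8.85 and 9.04 with VPA. Its difference was 0.45 ± 0.18 (SE; adjusted p = 0.549 in limma), and 0.23 without untreated replicate 2. Prim2, the large primase subunit, read 7.31 and 7.11 untreated and 7.42 and 7.54 with VPA, a difference of 0.27 ± 0.13 (adjusted p = 0.588 in limma). For Pola1, the catalytic subunit of polymerase alpha, the signals were 8.28 and 8.03 untreated and 8.43 and 8.41 with VPA. Its difference was 0.26 ± 0.13 (adjusted p = 0.609 in limma). Pola2, the accessory subunit, read 7.28 and 7.57 untreated and 7.72 and 7.75 with VPA, a difference of 0.31 ± 0.14 (adjusted p = 0.57 in limma). All 4 genes of the complex had separate groups upward, as did 24.1% of all represented genes and 35.7% of the brighter ones. The 4 were read on the same arrays. Without untreated replicate 2 the differences of Prim2, Pola1 and Pola2 were 0.17, 0.13 and 0.46. Without untreated replicate 1 they were 0.37, 0.38 and 0.17.

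The polymerases that extend the primers had small differences. Pole, the catalytic subunit of polymerase epsilon, read 8.32 on both untreated arrays and 8.47 and 8.29 with VPA, and Pold1, that of polymerase delta, differed by −0.02 ± 0.16. Pcna, the sliding clamp, lay at 11.11 and 11.04 untreated and at 11.13 and 11.15 with VPA. Its difference was 0.07 ± 0.11, and its other probe set also gave 0.07. The clamp loader subunits ranged from −0.06 for Rfc5 to 0.36 for Rfc4. Rfc4 read 8.87 and 8.30 untreated and 8.90 and 8.99 with VPA, so the difference of 0.36 ± 0.21 (adjusted p = 0.655 in limma) was 0.07 without untreated replicate 2. Rfc3 and Rfc1 differed by 0.20 and 0.12 with overlapping groups, and Rfc2 by 0.0039. Without untreated replicate 2 the differences of Rfc3 and Rfc1 were −0.01 and −0.05, and they were 0.42 and 0.29 without untreated replicate 1. Of the single-strand binding subunits, Rpa1 differed by 0.13 ± 0.10 and Rpa2 by 0.02 ± 0.11. The median of the 14 genes was 0.13, and 0.06 without untreated replicate 2.

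Among the 4 genes of nucleotide supply and chromatin assembly, all with the higher mean in VPA cells, Chaf1b and Rrm2 had an unadjusted p under 0.05 in limma. A higher mean was found for 53.7% of all represented genes and 64.8% of the brighter ones, and such a p upward for 5.9% and 10.7%. Chaf1b encodes a subunit of chromatin assembly factor 1, which places new histones behind the fork. It read 7.54 and 7.48 untreated and 7.94 and 8.10 with VPA, with both VPA arrays far above the untreated pair. Means were 7.51 ± 0.042 and 8.02 ± 0.12 (SD, n = 2 each), a difference of 0.51 ± 0.12 (SE), or 1.42-fold. The adjusted p was 0.472 in limma, and the difference lay between 0.43 and 0.59 with each array left out. Chaf1a, the large subunit of the same factor, read 7.77 and 8.26 untreated, and these enclosed both VPA values, of mean 8.05 ± 0.071 (SD). The difference was 0.04 ± 0.19, and its sign depended on which untreated array was kept, at −0.21 with replicate 2 and 0.28 with replicate 1.

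Rrm2 encodes the small subunit of ribonucleotide reductase, whose supply rises in S phase and sets the making of deoxynucleotides. Its signal was 9.62 and 9.40 untreated and 9.92 and 9.94 with VPA. The VPA values were close together and above both untreated ones, a difference of 0.42 ± 0.13 (SE) or 1.34-fold (adjusted p = 0.503 in limma). It was 0.31 without untreated replicate 2. Rrm1, the large subunit, read 9.84 and 9.60 untreated and 9.89 and 9.85 with VPA, a difference of 0.15 ± 0.13 (adjusted p = 0.766 in limma) that was 0.03 without untreated replicate 2. The median of these 4 genes was 0.28, and 0.40 without untreated replicate 1.

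In the E2F and cyclin E group, Cdk2 had the largest difference and E2f1 a small one of opposite sign. Cdk2, the partner of cyclins E and A, read 8.28 and 8.11 untreated and 8.65 and 8.79 with VPA. Means were 8.20 ± 0.12 and 8.72 ± 0.099 (SD, n = 2 each). The difference of 0.52 ± 0.12 (SE), or 1.44-fold, had the largest size among the 44 members, with an adjusted p of 0.474 in limma, and ranged from 0.44 to 0.61 with each array left out. Ccne1, encoding cyclin E1, read 9.11 and 9.25 untreated and 9.44 and 9.35 with VPA, a separate pair of groups with a difference of 0.22 ± 0.12 (adjusted p = 0.628 in limma). Ccne2, encoding cyclin E2, read 5.15 and 4.80 untreated and 5.33 and 4.96 with VPA. Its arrays spread more within a group than between groups, and its difference was 0.17 ± 0.19 (adjusted p = 0.822 in limma). E2f1, an activator of S-phase genes, read 6.14 and 6.36 untreated and 6.12 and 6.17 with VPA, with a difference of −0.10 ± 0.12 (adjusted p = 0.84 in limma). The signs for Ccne2 and E2f1 turned when untreated replicate 2 was left out. The median of the 4 was 0.20, 0.08 without VPA replicate 1 and 0.31 without VPA replicate 2.

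**Figure D4:**
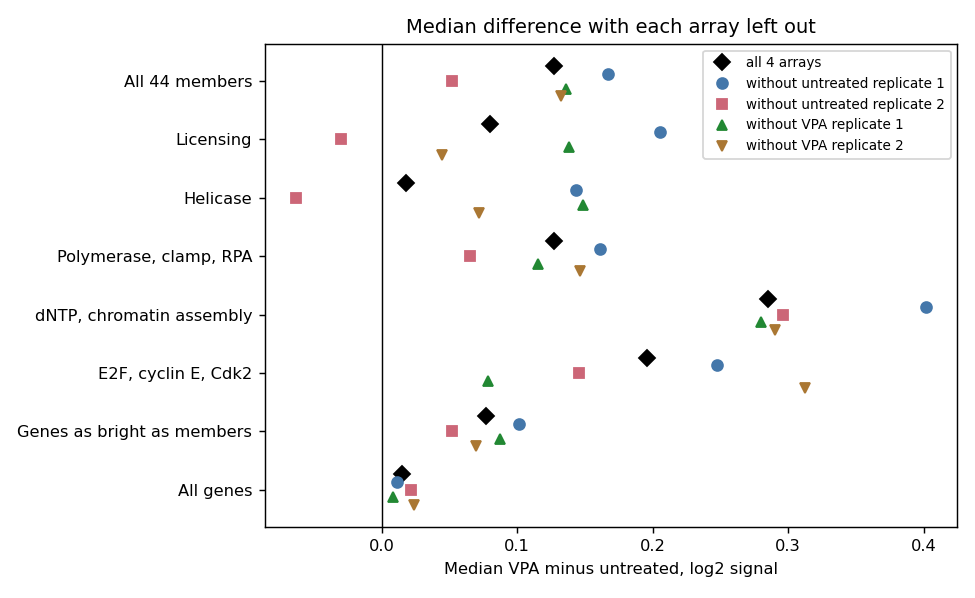
Median difference in log2 signal (VPA minus untreated) over the members, over each role, over represented genes at least as bright as the dimmest member and over all represented genes, with all 4 arrays (black diamonds) and with each array left out. The licensing and helicase medians lie below 0 without untreated replicate 2, while that of nucleotide supply and chromatin assembly stays between 0.28 and 0.40.

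Promoters of 4 members are printed to show what the set shares in sequence: Chaf1b and Gins3, which had the smallest p upward, and Mcm7 and Mcm5, which had the smallest p downward among members with an entry in the promoter table. Each is the RefSeq sequence of GRCm38.p6 from 250 bases before to 50 after the annotated start, 5′ to 3′ along the gene. The regions are chr16:93883651-93883950, plus strand for Chaf1b, chr8:95633309-95633608, plus strand for Gins3, chr5:138171834-138172133, minus strand for Mcm7 (the one listed ahead of another start) and chr8:75109259-75109558, plus strand for Mcm5. Capitals mark the E2F core, searched as TTCCCGC, or else TTCGCGC, or else TTGCCGC, or else TTGGCGC, on both strands.
Chaf1b: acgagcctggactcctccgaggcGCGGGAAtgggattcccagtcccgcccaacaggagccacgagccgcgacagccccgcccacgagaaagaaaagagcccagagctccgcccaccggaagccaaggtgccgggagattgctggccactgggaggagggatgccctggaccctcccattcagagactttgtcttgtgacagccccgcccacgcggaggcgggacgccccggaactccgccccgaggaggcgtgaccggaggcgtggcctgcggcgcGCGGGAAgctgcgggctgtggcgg
Gins3: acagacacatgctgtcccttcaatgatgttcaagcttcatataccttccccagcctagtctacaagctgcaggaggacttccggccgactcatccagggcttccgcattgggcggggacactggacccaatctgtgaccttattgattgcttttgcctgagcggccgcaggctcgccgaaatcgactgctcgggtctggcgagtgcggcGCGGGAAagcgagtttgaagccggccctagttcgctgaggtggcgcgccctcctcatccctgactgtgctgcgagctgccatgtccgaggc
Mcm7: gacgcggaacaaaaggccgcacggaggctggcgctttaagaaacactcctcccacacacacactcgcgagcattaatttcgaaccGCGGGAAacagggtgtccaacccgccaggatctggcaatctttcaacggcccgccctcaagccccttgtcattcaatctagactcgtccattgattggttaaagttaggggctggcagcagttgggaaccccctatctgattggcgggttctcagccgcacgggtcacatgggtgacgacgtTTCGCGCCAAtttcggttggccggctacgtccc
Mcm5: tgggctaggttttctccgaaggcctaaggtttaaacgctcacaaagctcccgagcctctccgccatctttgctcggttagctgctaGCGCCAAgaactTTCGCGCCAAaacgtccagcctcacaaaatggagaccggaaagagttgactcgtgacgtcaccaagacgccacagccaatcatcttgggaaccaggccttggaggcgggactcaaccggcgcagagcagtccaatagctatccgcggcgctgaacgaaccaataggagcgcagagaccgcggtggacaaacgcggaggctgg

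The Chaf1b window holds 2 matches, and both read GCGGGAA, which is TTCCCGC on the other strand, as does the single match of Gins3. In Mcm7 and Mcm5 there are 3 matches each, of which 2 overlap in the run TTCGCGCCAA, where TTCGCGC on the printed strand runs into TTGGCGC on the other. All 4 windows hold the core, although the first pair had higher and the second pair lower means with VPA. Of the 44 members, 35 had 1 or more entries in the table, with 40 promoters in all. The E2F core was in 25 of these 40 (62.5%) and in 9.57% of all 32851 promoters of the table, which include those of noncoding genes. CCAAT was in 62.5% against 37.4%, the GC box GGGCGG in 77.5% against 35.7%, the E-box CACGTG in 12.5% against 7.15% and TTTGAA, part of the cell cycle homology region, in 12.5% against 17.9%. The GC box can overlap an E2F core, and a match of letters shows no binding.

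**Figure D5:**
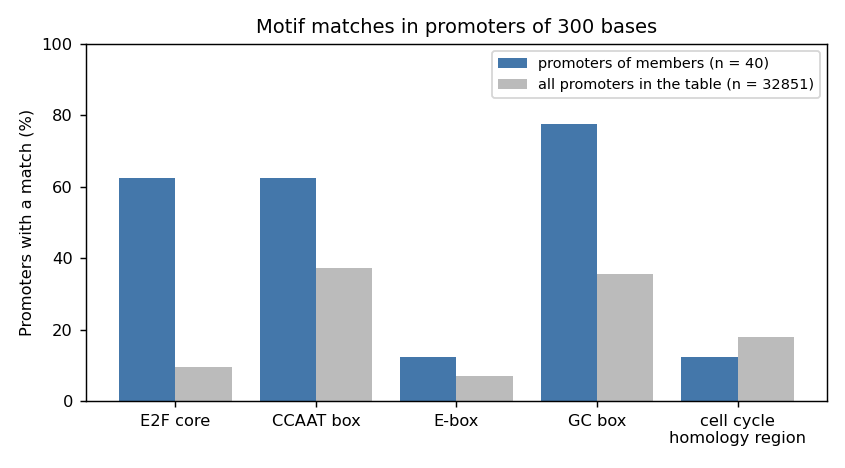
Share of promoters of 300 bases with at least 1 match on either strand, for the 40 promoters of members and for all 32851 promoters of the table. The E2F core is in 62.5% of the members' promoters and in 9.57% of all.

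Members with and without the core overlapped in their differences. Those with it in at least 1 promoter (23) had a median difference of 0.15 and ranged from −0.13 to 0.52, and those without it (12) had a median of 0.14 and ranged from −0.10 to 0.31. These are descriptions over genes that share the same 4 arrays, and no test was made. Cdk2, with the largest difference, had 3 matches. E2f1 and Ccne1 had 0 in the window used.

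Other genes of replication and of the E2F-RB network, 69 names written as a list of their own, gave 67 represented genes. With limma, 0 were called over all probe sets. At an unadjusted p under 0.05, 6 were higher and 1 lower, or 8.96% and 1.49%, beside 10.7% and 3.18% of the brighter genes and 5.9% and 2.71% of all represented genes. Their median was 0.08, equal to that of the brighter genes, and 0.03 without untreated replicate 2. The gene of smallest p was Asf1b, a histone chaperone that hands histones to chromatin assembly factor 1. It read 8.34 and 8.32 untreated and 8.92 and 8.93 with VPA, so both pairs were close together and far from each other. Its difference was 0.60 ± 0.10 (SE), or 1.51-fold, with an adjusted p of 0.462 in limma.

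Next upward were Rbl2 (p130, a repressor of E2F targets in resting cells) at 0.42 ± 0.13, Atad5 (which unloads the clamp) at 0.46 ± 0.14 and Cul4a (a scaffold of the ubiquitin ligase that degrades Cdt1) at 0.35 ± 0.11. Downward they were Ticrr, known as treslin and needed to fire origins, at −0.45 ± 0.12, E2f4 at −0.24 ± 0.12, the Cdc7 activator Dbf4 at −0.20 ± 0.12 and Chtf8 at −0.18 ± 0.11. Ticrr read 8.75 and 8.96 untreated and 8.44 and 8.36 with VPA, so the groups were separate. Dbf4 read 8.89 and 8.72 untreated and 8.60 and 8.62 with VPA, while its kinase Cdc7 had the higher mean with VPA. The adjusted p of these 7 genes lay between 0.487 and 0.655 in limma.

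The labelled cell type was checked against its markers. Pou5f1 (Oct4) lay at 10.75 and 10.96 untreated and at 10.85 and 10.63 with VPA. Of the 12 stem cell markers, 8 had the lower mean with VPA (median −0.16). At an unadjusted p under 0.05 in limma, 3 were lower (25%, beside 2.71% of all represented genes and 3.18% of the brighter ones) and 0 higher. These were Nanog at −0.48 ± 0.14, Sall4 at −0.43 ± 0.11 and Utf1 at −0.33 ± 0.12, each with separate groups, and they are of about the size of the largest differences among the replication genes. The part of such a shift in the members' values was not tested. Over the 12 markers, the mean log2 signal per array was 10.17 and 10.11 untreated and 9.97 and 10.02 with VPA. Of 22 fibroblast markers, 14 had the lower mean (median −0.08), and their mean log2 signal was 4.85 and 4.89 untreated and 4.83 and 4.82 with VPA. Sparc, the brightest, lay at 9.09 and 9.18 untreated and at 8.89 and 8.86 with VPA, lower with separate groups. Thy1 and Mmp2 had the higher mean with VPA, by 0.31 ± 0.12 and 0.24 ± 0.16. Col1a1 had group means of 6.83 and 6.56, while Lum and Fap, between 2.18 and 2.51, were near the floor of the arrays. The 7 endoderm markers lay at or below 4.95 on every array, and the 6 trophoblast markers at or below 6.61, where the highest was Tfap2c. At an unadjusted p under 0.05 in limma, 2 endoderm markers were lower (28.6%, beside 2.71% of all represented genes), Sox7 at −0.59 ± 0.17 and Gata6 at −0.42 ± 0.11. Gata6 read 3.64 and 3.77 untreated and 3.31 and 3.25 with VPA, below the median probe set mean of 3.79. Dab2 was higher at 0.36 ± 0.14 on its brighter probe set (14.3%, beside 5.9%), and 0 trophoblast markers passed. Dab2 had 2 probe sets. With the mean over a gene's probe sets, the largest upward difference of an endoderm marker was 0.17, and 0 passed upward. In such bulk RNA, a changed share of cells in S phase and a changed amount of RNA per cell cannot be told apart, and the part of feeder RNA in the differences of the members was not tested.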

How the data were processed

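Total RNA of 4 samples of E14 cells, 2 untreated and 2 given VPA, was measured on 1 array each. Each value the authors deposited is a log2 signal of 1 probe set. Per the submitters' processing notes it comes from RMA and Expression Console 1.1, and RMA includes a background correction, quantile normalization and a summary over probes. Medians of the arrays lay between 3.80 and 3.82. No detection calls were used here, and the number of arrays limits the precision. Of 35556 probe sets, 21789 had 1 symbol in the platform annotation. A gene with several was represented by the one of highest mean.

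The deposited values were compared as they stand with lmFit and eBayes of limma 3.58.1 (R 4.3.3, 2 residual and 2.93 prior degrees of freedom, two-sided, Benjamini-Hochberg over all probe sets, threshold 0.05). The fit was tested on simulated data with known changes, where it called most changes of 4-fold or more, few of 2-fold and none of 1.5-fold. All differences of the members were smaller than 1.5-fold. Members, lists and the rule for named genes (3 to 5 of smallest p per role, all 4 E2F and cyclin E genes, 4 per direction of the other pathway genes, and the 2 promoters per direction of smallest p) were chosen with earlier results of these data known. Alternatives were a renewed quantile normalization, median centring, leaving out dim probe sets, a trended and robust variance, the replicate number as a block, the mean over a gene's probe sets, and leaving out each array.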

Additional observations from a re-analysis of the deposited data

How the results depend on the processing

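No probe set, member or other pathway gene was called under any alternative run. That says nothing about stability, since even planted changes of 1.5-fold, larger than those of the members, were not called in simulated data. With each array left out in turn, the members at an unadjusted p under 0.05 numbered from 1 to 11 upward and 0 downward. The median difference ranged from 0.0523 to 0.167 for all members, from −0.0300 to 0.205 for licensing, from −0.0628 to 0.149 for helicase, from 0.0649 to 0.161 for polymerase, from 0.280 to 0.402 for nucleotide supply and chromatin assembly, and from 0.0787 to 0.313 for E2F and cyclin E genes. Ccne2 ranged from −0.01 to 0.36, at −0.0012 without untreated replicate 2 and −0.012 without VPA replicate 1, and E2f1 from −0.21 to 0.0034, the last without untreated replicate 2. The other members that changed sign with at least 1 array left out were Orc1, Orc2, Orc3, Orc5, Cdt1, Mcm2, Mcm6, Gins1, Gins2, Pold1, Pole, Rfc1, Rfc2, Rfc3, Rpa2 and Chaf1a, for 18 of 44 in all. Rfc2, Rpa2 and Chaf1a also did so under renewed quantile normalization, and Rfc2 under median centring. The cause was not tested. At an unadjusted p under 0.05 in limma, renewed quantile normalization gave 5 members upward, and the median difference was 0.10. That is 11.4% of the members, beside 7.01% of the brighter genes and 4.33% of all represented genes. The renewed normalization took the brighter genes from 868 higher and 258 lower to 569 and 435 at an unadjusted p under 0.05, with a median of 0.02. The replicate number as a block gave 0 calls and 4 members upward (9.09%, beside 6.97% of the brighter genes and 3.95% of all represented genes). The difference between replicates 1 and 2 in the untreated group correlated with that in the VPA group at −0.175 over represented genes. Crossing the numbers, chosen after seeing the data, gave 0 calls and 5 members upward (11.4%, beside 11.9% of the brighter genes and 6.39% of all). The mean over probe sets gave 6 (13.6%, beside 15% of the brighter genes and 8.51% of all represented genes), with the variance fitted over genes instead of all probe sets.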
